A study of Mus musculus with 9 samples.

Results

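The mitochondrial ribosomal protein genes were taken as all gene symbols that start with Mrpl or Mrps followed by a digit, leaving out processed pseudogenes. This gave 78 genes of the 24736 in the deposited tables, and all 78 passed the filter on low counts that 13890 genes passed. By their known place in the ribosome, 51 belong to the large subunit and 26 to the small subunit. That count places Mrps30 and Mrps18a, which carry small-subunit symbols, in the large subunit where their proteins are found. Mrps36 is kept by the symbol rule although its product is a subunit of the oxoglutarate dehydrogenase complex rather than of the ribosome. Of the 77 ribosomal members, 45 have a bacterial counterpart and 32 are particular to mitochondria.

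The mitochondrial ribosome translates the few respiratory chain proteins that mitochondrial DNA encodes. Its proteins are encoded in the nucleus, made in the cytosol and imported, and they are assembled on ribosomal RNA made inside the mitochondrion. The oocyte supplies the embryo's mitochondria. At the second meiotic metaphase it transcribes almost nothing, so its messenger RNA is largely a store made earlier.

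Transcripts were measured in 9 libraries, each made from 15 oocytes of 1 female ICR mouse labelled 4 to 5 weeks old, with 3 mice in each of 3 groups. KYZY mice were exposed to daily stressors for 6 weeks and then given 0.1 ml of a herbal decoction, the Kai Yu Zhong Yu (KYZY) recipe, by gavage each day for 4 weeks. Stress mice received for 6 weeks the daily stressors of a chronic unpredictable mild stress (CUMS) model, among them tail pinch, cold swimming, restraint and deprivation of food or water, and control mice received none. All mice were superovulated with 7.5 IU of PMSG and 7.5 IU of hCG, and their oocytes were freed of cumulus cells with 100 IU/ml hyaluronidase for 10 min, 16 hours after hCG. Only the KYZY labels name a NovaSeq run, and no stressed group given a vehicle over the same 4 weeks was analysed here. The recipe, the added weeks and the sequencing run therefore cannot be told apart in any comparison with KYZY oocytes.

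Total counts ran from 46324094 in KYZY 3 to 106990821 in stress 2. Oocyte markers were abundant in every library, with the summed level of 10 such genes between 62088 and 94724 CPM (counts divided by the TMM-scaled library total and multiplied by 1e+06). Markers of cumulus and granulosa cells, which surround the oocyte, differed widely between libraries of the same group. Summed over the 32 markers they reached 773 to 1862 CPM in KYZY, 703 to 1458 CPM in stress and 630 to 939 CPM in control oocytes. Serpine2 and Sdc1 supplied most of that level in every library but KYZY 3. Without those 2 genes the sums were 44.3, 452 and 755 CPM in KYZY 1, 2 and 3, 24.9, 43.8 and 106.6 CPM in stress 1, 2 and 3, and 26.2, 48.1 and 409 CPM in control 1, 2 and 3. Tnfaip6 and Ptx3, which belong to the expanded cumulus matrix, were at 0 in KYZY 1, stress 1, stress 2, control 1 and control 2 and above 0 in the other 4 libraries. Of the 32 markers, 12, 4 and 2 were at 0 in the KYZY libraries, 18, 9 and 4 in the stress libraries and 20, 13 and 2 in the control libraries, by number. The 4 libraries with both matrix genes above 0, KYZY 2, KYZY 3, stress 3 and control 3, are called marker-rich here. Not all markers give this split. Cyp11a1 had 165, 428 and 228 CPM in KYZY 2, KYZY 3 and control 3. It had 14.7 CPM in stress 3, near the 10.6 CPM of stress 2. Star had 0.373 CPM in stress 3 and 3.54 CPM in stress 2. Has2 had 0.0632, 0.0981 and 0.0698 CPM in KYZY 1, stress 1 and stress 2. The members' median and some other results below are also given without the 4 libraries, but not every result is.

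The promoters of these genes were searched for 3 short motifs. NRF1, a nuclear respiratory factor, GABPA, a factor of the ETS family, and YY1 are known to bind near the start sites of such genes in mammals. RefSeq promoters on GRCm38.p6, 250 bases before to 50 bases after the start site, were available for 69 of the 78 members. The NRF1 motif, read as GCGC, then any base, then TGCGC, was found on either strand in 13 of the 69 (18.8%), against 10% of the 10804 promoters of genes that passed the count filter and 6.98% of 16055 promoters of protein-coding genes in the tables. An ETS motif (CCGGAAG) was found in 25 members (36.2%), against 17.3% and 12.4% of those promoters in the same order. A YY1 motif (AAGATGGCG) was found in 8 members (11.6%), against 3.06% and 2.1%. At least 1 of the 3 was found in 40 members (58%), against 27.4% and 19.4%. Only 4 members held both an NRF1 and an ETS motif, and in no member did matches of different motifs overlap. Median GC content was 58.3% in the members and 60.3% in the promoters of genes that passed the filter.

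Promoters are shown for 6 members that the results below turn on. They are Mrpl9 (chr3:94443086-94443385, + strand), the member with the most transcript, with 1 NRF1 motif, and Mrps27 (chr13:99344536-99344835, + strand), the most abundant of the small subunit, with an ETS and a YY1 motif. Mrpl45 (chr11:97315466-97315765, + strand), the anchor of the ribosome at the inner membrane, holds 3 NRF1 motifs, and Mrpl43 (chr19:45006393-45006692, - strand), a member of low level, holds 2 ETS motifs. Mrps22 (chr9:98601630-98601929, - strand) holds 1 ETS motif, and Mrps15 (chr4:126046678-126046977, + strand) none of the 3 in this window. Sequences run 5′ to 3′ along the gene's strand, and capitals mark the motif letters.
Mrpl9: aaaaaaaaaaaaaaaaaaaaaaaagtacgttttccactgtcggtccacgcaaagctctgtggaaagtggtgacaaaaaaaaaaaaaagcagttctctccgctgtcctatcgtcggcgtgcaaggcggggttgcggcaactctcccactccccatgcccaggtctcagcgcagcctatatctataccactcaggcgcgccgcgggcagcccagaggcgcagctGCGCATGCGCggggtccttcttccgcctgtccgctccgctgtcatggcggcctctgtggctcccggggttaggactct
Mrps27: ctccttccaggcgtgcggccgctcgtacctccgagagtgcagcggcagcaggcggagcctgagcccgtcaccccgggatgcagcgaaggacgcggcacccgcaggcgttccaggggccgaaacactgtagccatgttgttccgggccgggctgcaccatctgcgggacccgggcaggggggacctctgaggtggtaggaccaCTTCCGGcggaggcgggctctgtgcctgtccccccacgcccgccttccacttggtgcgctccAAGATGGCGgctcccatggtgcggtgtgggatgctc
Mrpl45: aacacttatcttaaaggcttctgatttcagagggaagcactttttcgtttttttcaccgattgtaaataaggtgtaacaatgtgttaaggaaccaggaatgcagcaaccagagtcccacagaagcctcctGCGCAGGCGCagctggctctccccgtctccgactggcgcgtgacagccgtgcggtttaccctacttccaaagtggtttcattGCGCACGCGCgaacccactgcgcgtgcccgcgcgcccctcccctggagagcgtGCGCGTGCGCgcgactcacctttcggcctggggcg
Mrpl43: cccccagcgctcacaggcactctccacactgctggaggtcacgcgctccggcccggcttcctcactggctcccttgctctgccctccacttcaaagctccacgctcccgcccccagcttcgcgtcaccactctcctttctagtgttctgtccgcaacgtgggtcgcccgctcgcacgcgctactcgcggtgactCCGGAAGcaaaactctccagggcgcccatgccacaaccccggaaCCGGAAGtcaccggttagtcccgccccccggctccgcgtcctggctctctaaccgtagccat
Mrps22: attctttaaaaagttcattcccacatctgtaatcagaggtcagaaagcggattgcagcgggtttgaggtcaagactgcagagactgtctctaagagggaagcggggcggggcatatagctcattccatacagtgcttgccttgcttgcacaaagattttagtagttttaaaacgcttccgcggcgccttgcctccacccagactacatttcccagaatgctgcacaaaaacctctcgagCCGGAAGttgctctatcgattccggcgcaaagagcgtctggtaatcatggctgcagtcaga
Mrps15: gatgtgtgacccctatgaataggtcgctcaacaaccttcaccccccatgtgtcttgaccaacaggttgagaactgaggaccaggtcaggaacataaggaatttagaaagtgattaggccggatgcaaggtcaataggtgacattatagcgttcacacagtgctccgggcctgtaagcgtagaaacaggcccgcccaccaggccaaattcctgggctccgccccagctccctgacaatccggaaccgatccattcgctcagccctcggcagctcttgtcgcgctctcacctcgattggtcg

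The members were ranked by mean CPM over the 9 libraries and cut into 26 high-level, 26 mid-level and 26 low-level genes, a split made after their values had been seen. Of those with a promoter entry, at least 1 motif was found in 13 of 25 high-level (52%), 14 of 23 mid-level (60.9%) and 13 of 21 low-level members (61.9%).

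Although most of these proteins are present once in each ribosome, their transcripts were stored at very unequal levels in these oocytes. The median member stood at 4.13 CPM, close to the 4.07 CPM of all genes that passed the filter, but 12 members averaged under 1 CPM and 24 averaged over 10 CPM. Mrpl9, a large-subunit protein with a bacterial counterpart, had 211, 225 and 284 CPM in KYZY, 159, 156 and 241 CPM in stress and 266, 152 and 269 CPM in control oocytes. It was the most abundant member in every library and took 21.1% of the summed level of the 78 genes, and the 8 members of highest mean CPM took 54.7%. The groups overlapped for Mrpl9. The gene lies on chromosome 3, 94443154 to 94448708 (GRCm38), and its exons share 157 bases with those of Oaz3 on the opposite strand. The library kit keeps no strand, so reads over such stretches cannot be told apart. In all, 22 of the 78 members share exon bases with another counted gene, among them Mrpl18, Mrpl19, Mrpl21, Mrpl24, Mrpl43, Mrpl47, Mrpl49, Mrps6, Mrps7, Mrps27 and Mrps34. How the counting split reads between a gene and its processed pseudogenes is not given in the sources used here.

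Levels were also divided by the exon length annotated for each gene, which need not be the length of the stored transcript. On that scale Mrpl9 stood at 84.1 CPM per kb over the 9 libraries. Mrpl18, a large-subunit protein with a bacterial counterpart, followed at 49.7, then Mrpl2, a protein near the peptidyl transferase centre, at 43.3, and Mrps27, a small-subunit protein with pentatricopeptide repeats, at 43.2 CPM per kb. Mrps36 (38.7), Mrpl21 (38.4), Mrpl4, which lines the exit tunnel (30.7), and Mrps6 (18.5 CPM per kb) completed the 8 highest. At the other end were Mrpl15 and Mrpl19, both at 0.196, Mrpl11 at 0.247 and Mrps34 at 0.351 CPM per kb. Mrpl15, Mrpl19 and Mrpl11 had mean levels of 1.04, 0.982 and 0.757 CPM over annotated lengths of 5289, 5000 and 3069 bases. Mrpl33 had a lower mean, 0.524 CPM, but stood at 1.1 CPM per kb over 478 bases. The rank of those 3 genes therefore rests on annotated length, and transcript length in these oocytes was not tested. Mrps34, a small-subunit protein particular to mitochondria, had 0.19, 0.529 and 0.898 CPM in KYZY, 0, 0.192 and 0.186 CPM in stress and 0, 0.115 and 0.794 CPM in control oocytes. A count of 3 read pairs was worth 0.105 to 0.245 CPM, so most of these values lie near the limit of detection. Exon length went with CPM (Spearman rho 0.389 across 78 genes, which are not independent replicates) but hardly with CPM per kb (rho -0.104).

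**Figure D1:**
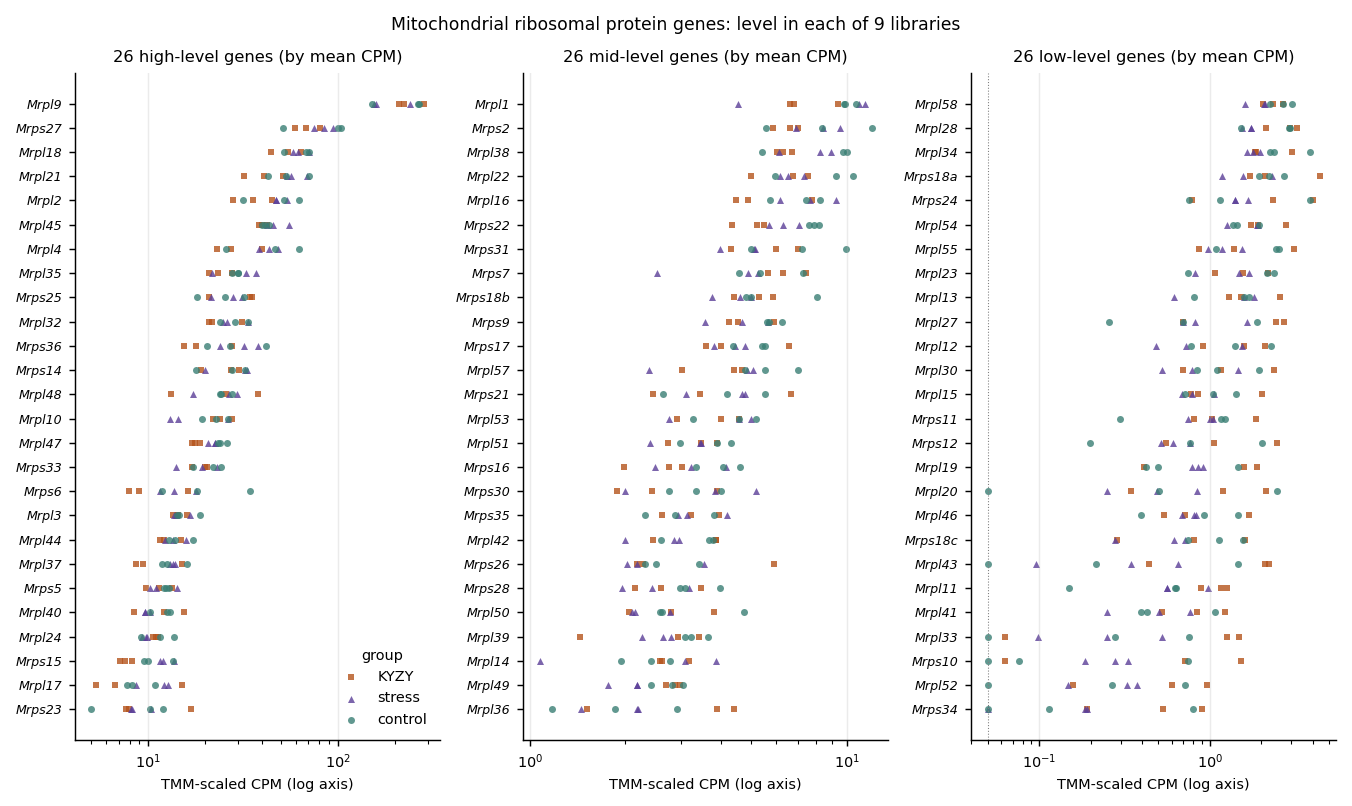
CPM of each of the 78 genes in each of the 9 libraries, on log axes, with genes ordered by mean CPM. Squares are KYZY, triangles stress and circles control libraries. Values of 0 are drawn on the dotted line. Mrpl9 stands alone at 152 to 284 CPM, and the libraries of a group lie far apart among the 26 low-level genes.

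Levels were uneven within each functional part of the ribosome as well. Of the L7/L12-type stalk, which recruits translation factors, Mrpl10 had 27.8, 24.1 and 22 CPM in KYZY, 13.1, 14.5 and 26.6 CPM in stress and 26.3, 19.4 and 22.7 CPM in control oocytes. Its partner Mrpl12 had 0.916, 1.59 and 2.1 CPM in KYZY, 0.724, 1.54 and 0.481 CPM in stress and 0.777, 1.4 and 2.29 CPM in control oocytes. Mrpl11, which forms the base of the stalk, had 0.884, 1.16 and 1.27 CPM in KYZY, 0.564, 0.558 and 0.978 CPM in stress and 0.149, 0.63 and 0.625 CPM in control oocytes. Every KYZY value of Mrpl11 lay above every control value, the single member for which KYZY lay wholly above control. The other 2 stalk genes overlapped between all groups.

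Around the peptidyl transferase centre, Mrpl2 had 45.3, 35.9 and 28.1 CPM in KYZY, 47.2, 54 and 47.5 CPM in stress and 62.6, 52.3 and 31.7 CPM in control oocytes. Mrpl3, which lies near the same centre, had 13.5 to 16 CPM in KYZY, 13.7 to 16.6 CPM in stress and 14.2 to 18.7 CPM in control oocytes. Of the proteins at the exit tunnel, Mrpl4 had 39.8, 27.5 and 23 CPM in KYZY, 48.2, 43.3 and 38.3 CPM in stress and 62.9, 46.6 and 25.9 CPM in control oocytes. The lowest values of both Mrpl2 and Mrpl4 were those of KYZY 3, KYZY 2 and control 3. Mrpl24 (9.21 to 13.7 CPM), Mrpl22 (5 to 10.5 CPM) and Mrpl23 (0.744 to 2.38 CPM) spanned lower levels over the 9 libraries. Mrpl45, at 38.5, 42.4 and 39.95 CPM in KYZY, 55.7, 45.6 and 42.6 CPM in stress and 39.9, 43.2 and 41.2 CPM in control oocytes, varied 1.45-fold from its lowest to its highest library.

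Among small-subunit members, Mrps12, a protein of the decoding centre, had 0.553, 1.06 and 2.49 CPM in KYZY, 0.515, 0.768 and 0.605 CPM in stress and 0.198, 0.764 and 2.03 CPM in control oocytes. KYZY 3 and control 3 were the highest. The Mrps18 family sits at 3 places in the ribosome and its genes differed in level. Mrps18b had 3.74 to 8.09 CPM over the 9 libraries, Mrps18a 1.18 to 4.41 CPM and Mrps18c 0.279 to 1.61 CPM. Mrps30, the other large-subunit protein with a small-subunit symbol, had 1.88 to 5.16 CPM. Mrps36 had 27.6, 17.8 and 15.5 CPM in KYZY, 32, 37.9 and 23.9 CPM in stress and 41.8, 27.2 and 20.4 CPM in control oocytes, again with KYZY 2, KYZY 3 and control 3 lowest.

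The summed level of the 78 genes differed between groups by less than it did within the control group. It was 1022, 926 and 1017 CPM in KYZY 1, 2 and 3, 1021, 1020 and 1023 CPM in stress 1, 2 and 3, and 1223, 1014 and 1054 CPM in control 1, 2 and 3. Means were 988 ± 54.2 CPM in KYZY, 1021 ± 1.49 CPM in stress and 1097 ± 111 CPM in control oocytes (SD, n = 3 each), and the ranges of the 3 groups overlapped. In bulk samples such as these, fewer cells of a type and less RNA per cell cannot be told apart.

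The 26 low-level members followed individual libraries. Their summed level was 22.6, 39.8 and 55.6 CPM in KYZY 1, 2 and 3, 24.5, 28 and 21.7 CPM in stress 1, 2 and 3, and 19.96, 29.5 and 47.7 CPM in control 1, 2 and 3. KYZY 3, control 3 and KYZY 2 were highest, while KYZY 1, stress 3 and control 1 lay close together. Of the 26 low-level genes, 16 had their highest value in KYZY 3, 5 in KYZY 2, 4 in control 3 and 1 in control 2. Among all 3782 genes in the same range of mean CPM, 24.4% were highest in KYZY 3, 17.7% in KYZY 2, 12% in control 3 and 16% in control 2.

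Expressed as the median log2 deviation from each gene's own mean (with 0.5 CPM added before the logarithm), the low-level members lay at -0.305, 0.313 and 0.711 in KYZY 1, 2 and 3, at -0.224, -0.009 and -0.299 in stress 1, 2 and 3, and at -0.442, -0.1 and 0.507 in control 1, 2 and 3. All genes in the same CPM range moved less, at -0.201, 0.101 and 0.261, at -0.088, -0.011 and -0.168, and at -0.234, 0.001 and 0.203 in the same libraries. The 81 cytosolic ribosomal protein genes that passed the filter varied more, at -0.627, 0.958 and 1.78 in KYZY, -1.19, 0.14 and -0.234 in stress and -0.986, -0.643 and 1.09 in control libraries. The cumulus marker sums without Serpine2 and Sdc1 were likewise highest in KYZY 3, KYZY 2 and control 3. Stress 3 held the next of these sums but a low-level member median below 0. With Serpine2 and Sdc1 the sum was highest in KYZY 2, stress 3 and KYZY 3. Markers of other cell types were also uneven. Those of stroma and endothelium summed to 20.5, 20.3 and 72 CPM in KYZY, 22.7, 26.7 and 24.5 CPM in stress and 22.6, 31.2 and 61.2 CPM in control libraries. Blood and immune markers summed to 0, 75.8 and 10.6 CPM in KYZY, 0.0981, 2.72 and 5.09 CPM in stress and 0.0661, 0.898 and 12.3 CPM in control libraries. Oviduct epithelium markers summed to 460, 348 and 273 CPM in KYZY, 337, 370 and 434 CPM in stress and 501, 418 and 292 CPM in control libraries. The part of RNA from any of these cell types in the low-level members was not tested.

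**Figure D2:**
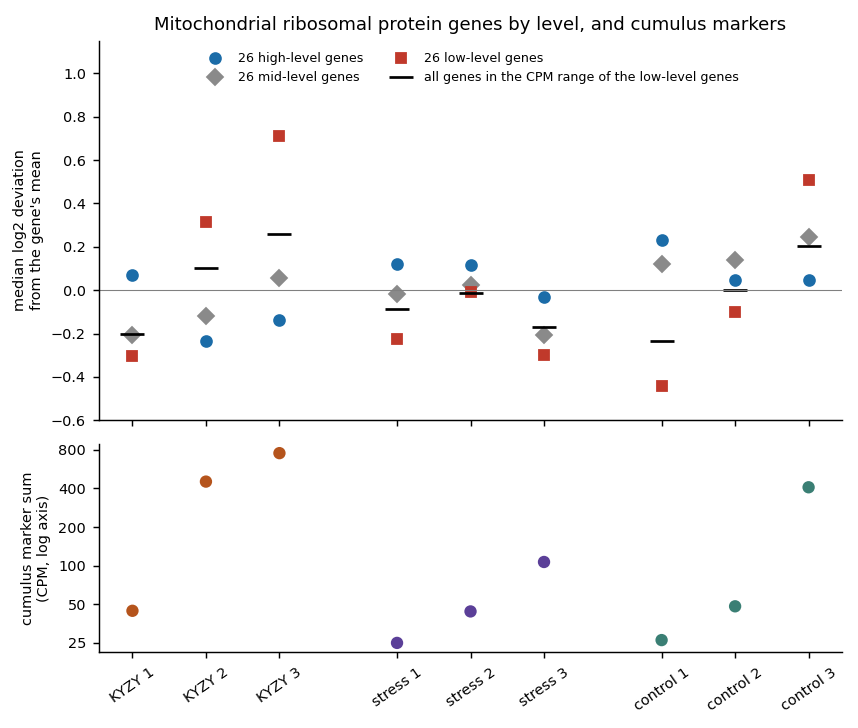
Top, median log2 deviation from each gene's mean for the 26 high-level, 26 mid-level and 26 low-level members in each library, with all 3782 genes in the CPM range of the low-level members as black dashes. Bottom, summed CPM of cumulus and granulosa markers without Serpine2 and Sdc1, on a log axis. The low-level members reach 0.711 in KYZY 3, 0.507 in control 3 and 0.313 in KYZY 2, the 3 libraries with marker sums of 755, 409 and 452 CPM.

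The high-level members did not share that pattern. Their median deviation was 0.072, -0.235 and -0.138 in KYZY 1, 2 and 3. It was 0.119, 0.116 and -0.033 in the stress libraries and 0.233, 0.047 and 0.047 in the control libraries, numbered the same way. Mrps27, for instance, had 81.2, 68.4 and 59.9 CPM in KYZY, 84.8, 94.2 and 75.2 CPM in stress and 104, 99.99 and 51.5 CPM in control oocytes. Its lowest values were those of control 3, KYZY 3 and KYZY 2.

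The comparison of stress with control asks whether stored transcripts differ in oocytes of stressed mice. More members had a lower than a higher fitted level in stress oocytes, 58 against 20 of the 78, but no single gene passed the test. The share lower was 74.4% of the members, against 54% of all genes. The 78 genes had a median log2 fold change of -0.19, against -0.03 over all 13890 genes. The SD of the members' library medians within groups was 0.144, taken on log2 CPM with 0.5 CPM added, unlike the fold changes. On that scale the library medians averaged -0.009 in KYZY, -0.05 in stress and 0.079 in control oocytes. The large-subunit median was -0.22 and the small-subunit median -0.20.

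edgeR's quasi-likelihood test with Benjamini-Hochberg adjustment called 0 members and 0 of all genes (0%) at 0.05, and DESeq2 called 0 members and 0.151% of all genes. At an unadjusted p under 0.05, 0 members were higher, against 1.1% of all genes, and 0 were lower, against 1.58%. No member had all 3 stress values above all 3 control values (3.51% of all genes). For 7 of 78 members (8.97%) all stress values lay below all control values, against 4.38% of all genes. These 7 were Mrpl34, Mrpl49, Mrps18c, Mrpl58, Mrps22, Mrpl39 and Mrpl47, of which Mrpl58, a ribosome-bound peptidyl-tRNA hydrolase, and Mrpl39 were chosen after their values were seen.

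The 5 members of smallest p all had lower means in stress. Mrps31, a small-subunit protein particular to mitochondria (GRCm38 chromosome 8, 22410449 to 22429669), had 5.09, 4 and 5.12 CPM in stress, against 7.21, 9.96 and 4.99 CPM in control oocytes. The groups overlapped through control 3. Its log2 fold change was -0.64 (SE 0.302). Mrpl34, a short large-subunit protein, had 1.96, 1.8 and 1.65 CPM in stress, against 2.38, 2.26 and 3.85 CPM in control oocytes, and its log2 fold change was -0.65 (SE 0.343). Mrpl49 had 1.77, 2.17 and 2.17 CPM in stress, against 2.41, 3.05 and 2.8 CPM in control oocytes, a log2 fold change of -0.44 (SE 0.267). Neither of these 2 genes overlapped between the groups. Mrpl28 had 1.75, 1.54 and 1.74 CPM in stress, against 1.52, 2.92 and 2.93 CPM in control oocytes, where control 1 lay below all stress values. Mrps18c had 0.711, 0.619 and 0.279 CPM in stress, against 0.744, 1.13 and 1.56 CPM in control oocytes, with control 1 just above stress 1. The log2 fold changes of these 2 were -0.55 (SE 0.343) and -1.09 (SE 0.677), and the adjusted p of all 5 was 0.9999 in edgeR's test. Without the 4 marker-rich libraries, the log2 fold change was -0.29 for Mrpl34 and -0.48 for Mrps18c. Without control 3 it was -0.36 for Mrpl34, and without control 2 it was -0.37 for Mrps31.

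The median changed when libraries were left out. It was -0.12 without control 3, with 47 members lower, and 0.03 without the 4 marker-rich libraries, with 38 lower and 40 higher. With all libraries, the high-level members had a median of -0.03 (16 of 26 lower) and the mid-level members -0.27 (21 of 26 lower). The 3782 genes in the CPM range of the low-level members had a median of -0.17, with 62.6% lower. For the low-level members alone the median was -0.38 (21 of 26 lower), but 0.29 without control 3 and 0.43 without the 4 libraries, with 7 of 26 lower. With a replicate block, since same-numbered stress and control libraries counted as paired, it was -0.09, with 14 of 26 lower, and the median of all members was -0.08, with 46 of 78 lower. The fit without the 4 marker-rich libraries kept 2 libraries in stress and 2 in control.

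The comparison of KYZY with stress asks what differs after the recipe in stressed mice. Fitted levels were higher for members of low level and mostly lower for members of high level in KYZY oocytes, and again no gene passed the test. Of the 78 members 48 were higher and 30 lower, and the median log2 fold change was 0.18, against 0.01 over all genes. The share higher was 61.5% of the members, against 50.8% of all genes. All 26 low-level members were higher, with a median of 0.69. Of the 3782 genes in their CPM range 2415 (63.9%) were higher, with a median of 0.25. Of the 26 high-level members 18 were lower, with a median of -0.21 that was not computed without the marker-rich libraries.

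edgeR's quasi-likelihood test with Benjamini-Hochberg adjustment called 0 members and 0 of all genes (0%), and DESeq2 called 0 members and 0.0936% of all genes. At an unadjusted p under 0.05, 0 members were higher, against 2.15% of all genes, and 1 was lower, against 1.83%. All KYZY values lay above all stress values for 4 members (Mrpl28, Mrps7, Mrpl49 and Mrpl24), against 3.76% of all genes. They lay below all stress values for 6 members (Mrps15, Mrpl21, Mrpl47, Mrpl2, Mrps22 and Mrpl45), against 5.44%. Both shares of the 78 are near the share of all genes.

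Mrps15, a small-subunit protein with a bacterial counterpart (chromosome 4, 126046928 to 126055536), had the smallest p. It had 8.2, 7.15 and 7.57 CPM in KYZY, against 12, 13.7 and 11.5 CPM in stress oocytes. The groups lay well apart, with means of 7.64 ± 0.527 CPM in KYZY and 12.4 ± 1.14 CPM in stress oocytes (SD, n = 3 each). The log2 fold change was -0.70 (SE 0.211), with an unadjusted p of 0.00731 and an adjusted p of 0.9345 in edgeR's test. Mrps15 had 10.04, 13.6 and 9.49 CPM in control oocytes, so all 3 KYZY values were also below all 3 control values. Without the 4 marker-rich libraries, the log2 fold change of Mrps15 between KYZY and stress was -0.63.

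Mrpl21 had 40.8, 51.2 and 32.1 CPM in KYZY, against 54, 56.9 and 68.9 CPM in stress oocytes, a log2 fold change of -0.54 (SE 0.246). Mrpl28 had 2.13, 2.95 and 3.22 CPM in KYZY, against 1.75, 1.54 and 1.74 CPM in stress oocytes, a log2 fold change of 0.72 (SE 0.344). Neither overlapped between the groups. Mrps7, whose bacterial counterpart organises the head of the small subunit, had 6.29, 5.67 and 7.43 CPM in KYZY, against 5.25, 4.88 and 2.51 CPM in stress oocytes, a log2 fold change of 0.61 (SE 0.317). Its exons share bases with those of Gga3 and Mif4gd. For Mrps36 the log2 fold change was -0.62 (SE 0.315), and KYZY 1 lay above stress 3. The adjusted p was 0.9345 for these genes in edgeR's test. Without the 4 marker-rich libraries, the log2 fold change was 0.39 for Mrpl28, 0.33 for Mrps7 and -0.32 for Mrps36, and without stress 3 it was 0.35 for Mrps7.

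Of the low-level members, Mrpl43 had 0.442, 2.22 and 2.1 CPM in KYZY, against 0.343, 0.096 and 0.652 CPM in stress oocytes, with KYZY 1 inside the stress range. Mrpl33 had 0.0632, 1.26 and 1.49 CPM in KYZY, against 0.0981, 0.523 and 0.248 CPM in stress oocytes, with KYZY 1 below all stress values. Both were chosen after their values were seen. The shift lay in KYZY 2 and KYZY 3, the 2 marker-rich KYZY libraries. Between KYZY and stress the median log2 fold change was 1.61 for 26 cumulus and granulosa markers, 2.63 for 6 blood and immune markers, 2.24 for 9 stroma and endothelium markers and 1.89 for 8 oviduct epithelium markers that passed the filter. These medians weigh each marker alike and do not follow the summed levels. The oviduct sum was 348 and 273 CPM in KYZY 2 and KYZY 3, below the 460 CPM of KYZY 1. The stroma sum of KYZY 2, at 20.3 CPM, was the lowest of all libraries. Without the 4 marker-rich libraries, which leaves KYZY 1 alone in its group, the median of the low-level members was -0.25, with 20 of 26 lower, and that of all members was -0.18, with 52 lower. Without KYZY 3 alone, the median of all members was 0.02.

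**Figure D3:**
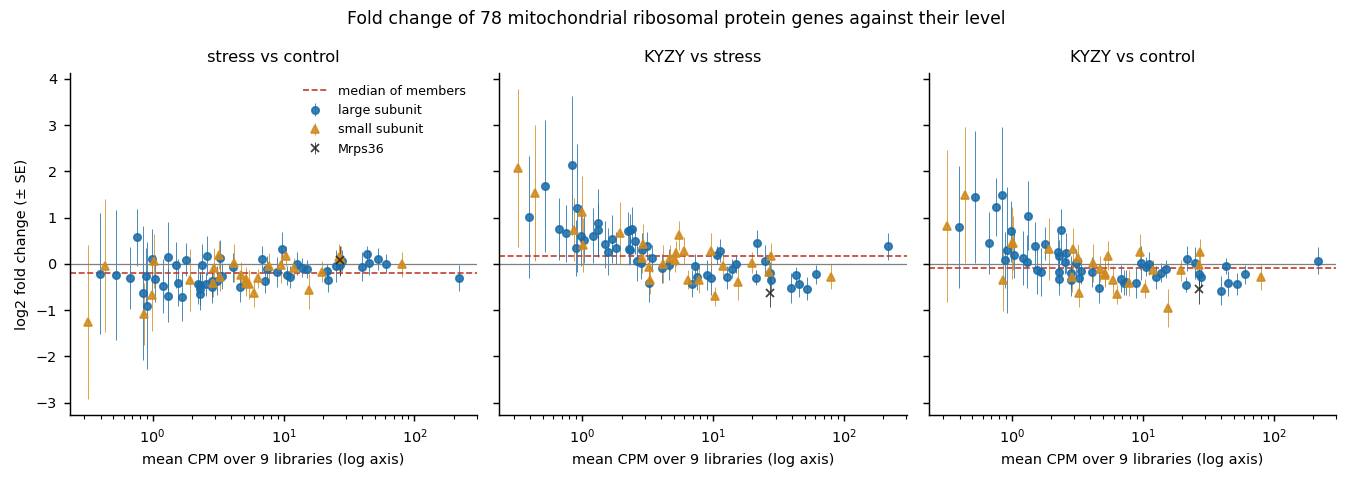
Log2 fold change with its standard error for each of the 78 genes against its mean CPM over 9 libraries (log axis), in the 3 comparisons. Circles are large-subunit and triangles small-subunit members, the cross is Mrps36, and the dashed line is the members' median (-0.19, 0.18 and -0.09 from left to right). Fold changes between KYZY and stress are above 0 at low level and mostly below 0 at high level, with large standard errors under 1 CPM.

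The comparison of KYZY with control asks how oocytes of treated mice stand against unstressed ones. The 4 members with an unadjusted p under 0.05, small-subunit Mrps22, Mrps15 and Mrps6 and large-subunit Mrpl47, had lower values in KYZY oocytes, and no gene passed the test. Of the 78 members 42 were lower and 36 higher, with 53.8% lower against 50.3% of all genes. The median log2 fold change was -0.09, against -0.003 over all genes. The median was -0.17 in the high-level, -0.23 in the mid-level and 0.35 in the low-level members (21 of 26 higher). The 3782 genes in the CPM range of the low-level members had a median of 0.13, with 57% higher. In the low-level members the median was -0.04 without the 4 marker-rich libraries, with 14 of 26 lower. The high-level and mid-level medians were not computed without them.

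edgeR's quasi-likelihood test with Benjamini-Hochberg adjustment called 0 members and 0 of all genes (0%), and DESeq2 called 0 members and 0.0216% of all genes. At an unadjusted p under 0.05, 0 members were higher, against 0.871% of all genes, and 4 were lower, against 1.86%. All KYZY values lay above all control values for 1 member (Mrpl11), against 2.43% of all genes. They lay below all control values for 7 members, against 4.79%. These 7 were Mrps22, Mrpl47, Mrps15, Mrps16, Mrpl57, Mrpl1 and Mrpl35, of which Mrpl57, Mrpl1 and Mrpl35 were chosen after their values were seen.

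Mrps22, a small-subunit protein particular to mitochondria (chromosome 9, 98588730 to 98601679), had the smallest p in this comparison. Variants of its human counterpart are known in women with primary ovarian insufficiency. It had 5.2, 4.35 and 5.47 CPM in KYZY, 6.29, 7.07 and 5.68 CPM in stress and 7.9, 8.16 and 7.63 CPM in control oocytes. The 3 groups did not overlap, with KYZY lowest and control highest. Between KYZY and control the log2 fold change was -0.66 (SE 0.21), with an unadjusted p of 0.0102 and an adjusted p of 0.996 in edgeR's test. Without the 4 marker-rich libraries it was -0.60.

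Mrpl47, a large-subunit protein at the rim of the exit tunnel in bacteria (chromosome 3, 32727497 to 32736755), had 17.6, 18.9 and 17 CPM in KYZY, 20.7, 22.5 and 22.5 CPM in stress and 23.8, 26 and 23.5 CPM in control oocytes. The groups again did not overlap, and the order was the same as for Mrps22. The log2 fold change between KYZY and control was -0.46 (SE 0.161), with an unadjusted p of 0.0175 in edgeR's test. Its exons share bases with those of Actl6a and Ndufb5 on the opposite strand, whose part in these values was not tested. No other member had 3 groups without overlap in all 3 comparisons. The share of all genes with 3 such groups was not counted, so no weight can be given to this order.

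For Mrps15, described above, the log2 fold change between KYZY and control was -0.53 (SE 0.21), and -0.35 without control 2. Mrps6 had 16.2, 7.93 and 8.98 CPM in KYZY, against 34.3, 18.1 and 11.9 CPM in control oocytes, where KYZY 1 lay above control 3. Its log2 fold change was -0.96 (SE 0.404), and -0.45 without control 1. Part of its exons is shared with Slc5a3 on the same strand. Mrps16 had 1.97, 2.75 and 3.02 CPM in KYZY, against 3.34, 4.6 and 4.06 CPM in control oocytes, a log2 fold change of -0.63 (SE 0.302), and -0.98 without the 4 marker-rich libraries. The adjusted p of these 3 genes and of Mrpl47 was 0.996 in edgeR's test. The median of all members was 0.08 without control 3.

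**Figure D4:**
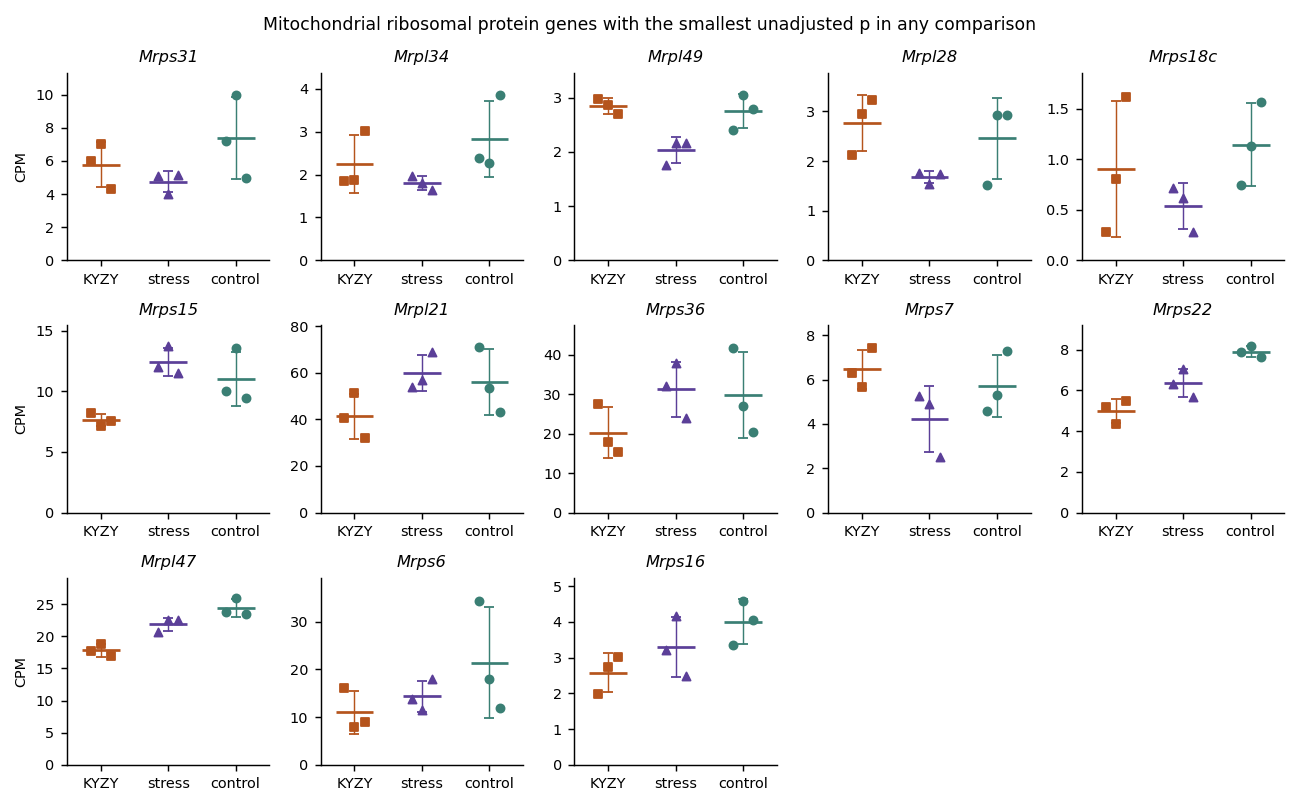
CPM in each library for the 13 members that were among the 5 of smallest unadjusted p in any comparison, by group (KYZY, stress, control from left to right), with the mean as a bar and the SD over 3 libraries as whiskers. Mrps15 is lowest in all 3 KYZY libraries, and Mrps22 and Mrpl47 separate the 3 groups in the order KYZY, stress, control.

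The rest of the mitochondrial translation machinery was read from the same fit. Of 19 translation factors 18 passed the filter, of 22 mitochondrial aminoacyl-tRNA synthetases and related enzymes 20, of 26 assembly factors 24, and of 7 symbols for ribosomal proteins without the Mrpl or Mrps name 5. edgeR called 0 of them in any comparison. DESeq2 called 1, Rmnd1, in stress against control, and at an unadjusted p under 0.05 edgeR placed Rmnd1 lower there, Rmnd1 and Iars2 higher in KYZY than in stress, and Iars2 higher in KYZY than in control.

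Rmnd1, an inner-membrane protein needed for mitochondrial translation, had 0.932, 0.808 and 1.45 CPM in KYZY, 0.343, 0.218 and 0.512 CPM in stress and 1.87, 2.15 and 1.32 CPM in control oocytes. All stress values lay below those of both other groups. Of all genes, 4.38% lay wholly lower in stress than in control and 3.76% wholly higher in KYZY than in stress. A count of 3 read pairs was worth 0.147, 0.105 and 0.186 CPM in stress 1, 2 and 3. No result with libraries left out is given for Rmnd1. The log2 fold change was -2.31 (SE 0.498) between stress and control and 1.57 (SE 0.488) between KYZY and stress, with edgeR adjusted p of 0.9999 and 0.9345. Iars2, the isoleucyl-tRNA synthetase, had 2.04, 3.85 and 2.94 CPM in KYZY, 1.01, 0.855 and 2.28 CPM in stress and 1.29, 1.02 and 1.84 CPM in control oocytes.

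The genes of these lists named next did not reach an unadjusted p of 0.05. Dap3, a GTP-binding protein of the small subunit, had 91.7 ± 18 CPM in KYZY, 114 ± 13.9 CPM in stress and 111 ± 25.8 CPM in control oocytes (SD, n = 3 each). It and Gadd45gip1, a large-subunit protein at 43.4 ± 11.4 CPM in KYZY, 46.5 ± 1.22 CPM in stress and 52.5 ± 16.1 CPM in control oocytes (SD, n = 3 each), were as abundant as the high-level members. Chchd1 was at 0.515 to 0.854 CPM in stress and 0.711 to 1.71 CPM in control oocytes. Gfm1, the elongation factor G1, was at 79.5 to 114 CPM in stress and 70.4 to 79.7 CPM in control oocytes. Pdf, which deformylates new mitochondrial proteins, had 0.727 to 2.27 CPM in KYZY and 0.528 to 1.1 CPM in stress oocytes. Slirp had 0.221 to 1.47 CPM in KYZY and 0.0661 to 0.352 CPM in control oocytes. Of the synthetase list, Yars2 had 0.559 to 0.834 CPM in stress and 0.761 to 2.35 CPM in control oocytes, and Gatb had 0.695 to 1.31 CPM in KYZY and 0.0785 to 0.478 CPM in stress oocytes. Of the assembly factors, Ngrn had 9.69 to 20.9 CPM in KYZY and 10.8 to 11.9 CPM in stress oocytes, and Tfb1m, which methylates the small ribosomal RNA, had 5.21 to 10.5 CPM in KYZY and 8.58 to 11.9 CPM in control oocytes. Mterf3 had 6.37 to 7.42 CPM in stress and 7.23 to 10.5 CPM in control oocytes, and Rcc1l had 0.505 to 1.04 CPM in KYZY and 0 to 0.454 CPM in stress oocytes. Rpusd4 ranged from 2.25 to 22.8 CPM within the stress group alone. Taco1 had 0, 0.118 and 0 CPM in KYZY, against 0.463, 0.392 and 0.443 CPM in control oocytes, and the KYZY values are within what 3 read pairs allow.

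The median log2 fold changes of these lists between stress and control were -0.03 for translation factors, -0.08 for synthetases, -0.04 for assembly factors and -0.17 for ribosomal proteins under other symbols, beside -0.19 for the 78 members. Between KYZY and stress they were 0.004, -0.07, -0.12 and -0.05 in that order, beside 0.18 for the members, and between KYZY and control -0.1, -0.13, -0.09 and -0.27, beside -0.09. Genes for the proteins of the cytosolic ribosome had a median of -0.63 in stress against control, 1.44 in KYZY against stress and 0.83 in KYZY against control, with 0 of 81 called by edgeR and by DESeq2 in each. At an unadjusted p under 0.05 edgeR placed 1, 1 and 2 of them higher in those comparisons and 0 lower. The 3 comparisons share libraries, so these medians are not independent of each other. Apart from those of the 78 members, they were not computed without the marker-rich libraries.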

How the data were processed

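RNA of metaphase II oocytes was amplified (SMART-Seq v4), and libraries were made from the cDNA by Tn5 transposase, without molecular identifiers or strand, per the labels' protocols. The values deposited are expected counts per gene, estimated, rounded to whole numbers and not normalized, with the unit read from the values. The submitters' processing notes name bcl2fastq 2.20, Trim Galore, HISAT2, StringTie, DESeq2 and the builds GRCm38 and mm10, without roles. A read pair appeared to be worth about 4 counts, so floors were set at 3 pairs, or 12 counts, and cover counting error only. Counts were scaled by TMM in edgeR 4.0.16 (R 4.3.3), filtered by filterByExpr (minimum count 10, total 15), and fitted over 9 libraries with 1 mean per group, 6 residual degrees of freedom and robust 2-sided quasi-likelihood F tests, with Benjamini-Hochberg adjustment over 13890 genes at 0.05. DESeq2 1.42.0 was an alternative, as were RLE scaling, other filters, counts divided by 4, fits of 2 groups, a replicate block and fits with libraries left out. The scripts were tested on simulated data with large changes only, so that test does not cover changes as small as most of the members'. The biological coefficient of variation was 0.611 over all genes, and no library was left out of the main results.

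The members and all lists, and the split of the members by level, were chosen with earlier results of these data known. Members named are the 5 of smallest p in each comparison, the 8 highest and 4 lowest per kilobase, and those with a listed place in the ribosome. In each other list the 2 of smallest p per comparison are named, except for an item that is not reported here. Positions and exon lengths come from GENCODE M21 and promoters from RefSeq, both on GRCm38. The libraries carry numbers 1 to 3 in each group. Deviations from group means correlated at 0.212, 0.327 and 0.346 for same-numbered stress and control libraries, which counts as pairing here, although stress 1 and control 2 also reached 0.326. For same-numbered KYZY and stress libraries the values were 0.373, -0.196 and 0.122, and for KYZY and control 0.557, -0.117 and 0.634, which does not.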

Additional observations from a re-analysis of the deposited data

How the results depend on the processing

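Of the 78 members, 0 were called at an adjusted p of 0.05 in any comparison under alternatives with more than 1 library per group. The 15 log2 fold changes of the members of smallest p kept their sign under all alternatives (255 of 255 values). These 15 were picked by p from the same libraries, so their kept sign is no independent test. With the replicate block edgeR called 0 genes in each comparison. The members' median was then -0.08 between stress and control (46 lower), 0.17 between KYZY and stress and -0.09 between KYZY and control, and the low-level median -0.09, 0.43 and 0.41 in the same order, against -0.38, 0.69 and 0.35 without it. The block changed no call. Over all genes, where edgeR called 0, DESeq2 called 21, 13 and 3 in stress against control, KYZY against stress and KYZY against control, and a fit of 2 groups called 1 between KYZY and stress. Leaving out single libraries gave 0 to 2, 0 to 1 and 0 to 3 calls in those comparisons, all above 0 without control 3. Without the 4 marker-rich libraries edgeR called 148, 115 and 119 of 14220 genes, none of them a member. Shares this small cannot set 0 of 78 members apart from all genes. That fit leaves KYZY 1 alone in its group and assumed to vary like the others, with 2 residual degrees of freedom. In that fit the members' median was 0.027 between stress and control and -0.18 between KYZY and stress, and the low-level members' median 0.43 and -0.25. Between KYZY and control these medians were -0.10 and -0.04, the second against 0.35 with all libraries. With single libraries left out, the members' median ran from -0.26 to -0.12 between stress and control, from 0.023 (without KYZY 3) to 0.26 between KYZY and stress, and from -0.19 to 0.081 (without control 3) between KYZY and control. The low-level median ran from -0.67 to 0.29 (without control 3) between stress and control, from 0.44 to 0.97 between KYZY and stress and from 0.04 to 0.70 between KYZY and control. The causes were not tested. Depth limits the low-level members most, since 3 read pairs are worth up to 0.245 CPM.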
